A study of Homo sapiens with 28 samples.

Results

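The H3K27ac peaks over WWTR1, CAMTA1, YAP1 and TFE3 were examined, the 4 genes whose coding sequence was put into SW872 cells in whole or in part. All peaks that overlapped the hg19 body of 1 of these genes, widened by 5000 bp to each side, were taken from each of 14 peak lists. They numbered 948 of the 654580 peaks of all lists, with 449 at WWTR1, 331 at CAMTA1, 144 at YAP1 and 24 at TFE3. H3K27ac, the acetylation of lysine 27 of histone H3, marks active promoters and enhancers, and each peak is an interval in which chromatin precipitated with an antibody to it gave more fragments than the local background.

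SW872 is an established human liposarcoma line, and the cells had been stably transduced with retroviruses made from the vector pBabeNeo. The GEO titles put the lists into 7 groups of 2, which are the empty vector, TFE3, CAMTA1, the mutants TAZ4SA and YAP5SA, and the fusions YAP-TFE3 and TAZ-CAMTA1. TAZ4SA and YAP5SA are TAZ and YAP with 4 and 5 serines replaced by alanine. TAZ-CAMTA1 joins the start of TAZ to CAMTA1 from within exon 9, and YAP-TFE3 joins the start of YAP to the larger part of TFE3. The constructs carried a double Flag tag, and the lines were pools of cells selected with G418. Whether the inserts hold introns is not stated in the sources used here. Per the labels, cells had reached 90% confluence 48 h before collection, TAZ-CAMTA1 included, except those titled CAMTA1, which were below confluence. In the comparisons at the CAMTA1 gene, the lists titled CAMTA1 thus differ from all others in confluence as well as in construct. The labels give H3K27ac as the antibody of each library, but their extract protocol describes a precipitation with an antibody to the Flag tag, and the lists were taken as H3K27ac. The 14 input libraries in the labels were not analysed here, and the study's methods call the 2 lists of a construct biological duplicates.

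The construct written in the names of the peaks differs from the GEO title in 14 of 14 lists. The lists titled empty vector carry the name CAMTA1, those titled TAZ4SA carry empty vector, those titled TAZ-CAMTA1 carry TAZ4SA and those titled CAMTA1 carry TAZ-CAMTA1. The lists titled YAP5SA carry the name TFE3, those titled YAP-TFE3 carry YAP5SA and those titled TFE3 carry YAP-TFE3. Lists are called here by their titles, and the name inside the list is given where a result turns on it. The lists differed in length from 5721 peaks, in TFE3 replicate 1, to 102009 peaks, in TAZ4SA replicate 1. The background at which peaks were called also differed, with a median from 1.74 fragments per position in TAZ4SA replicate 2 to 4.12 in YAP5SA replicate 1.

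TAZ, the product of WWTR1, and YAP are coactivators at the end of the Hippo pathway. They bind DNA through the TEAD factors, and phosphorylation of their serines by the LATS kinases keeps them out of the nucleus. CAMTA1 is a calmodulin-binding transcription activator, and TFE3 is a basic helix-loop-helix factor that binds E-box sequences and controls lysosomal genes. The fusions TAZ-CAMTA1 and YAP-TFE3 are the hallmarks of epithelioid hemangioendothelioma, a vascular sarcoma. Fragments of an inserted coding sequence without introns would align to the exons of the gene, and at an exon they cannot be told apart from fragments of the gene itself.

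WWTR1 lies on the minus strand of chr3:149235022-149454501. Its strongest peak stood 78 kb inside the gene body and not at its 5′ end. The peaks of all lists merged there into chr3:149368358-149379042, from 75.5 to 86.1 kb downstream of the 5′ end. This region had a peak in all 14 lists and a mean percentile of 97.7, where 100 is the strongest peak of a list by −log10 p and a list without a peak counts as 0. It ranked 410 of 138849 merged regions by that mean. GENCODE's gene span in GRCh38 is 219480 bases long, as is the body used here, and its canonical WWTR1 transcript starts 78.7 kb inside that span. Distances were measured within each build and no coordinate was converted.

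The fold enrichment at the summit of the strongest WWTR1 peak was 15.5 and 23 in the lists titled empty vector, 45.6 and 10.5 in TAZ4SA, 15.8 and 17.7 in TAZ-CAMTA1 and 27.1 and 28.5 in CAMTA1. It was 25.3 and 16.6 in YAP5SA, 19.2 and 13.3 in YAP-TFE3 and 6.68 and 18.2 in TFE3. The 4 lists whose titles carry TAZ sequence overlap with the other 10, and the highest and the lowest of those 4 share the title TAZ4SA. In percentile the 4 lists averaged 97.7 and the other 10 also 97.7 (difference 0.0128, exact permutation p = 0.992, Benjamini-Hochberg adjusted p over all regions tested 1).

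The summit of this peak fell at 2 places. In 11 lists it lay between 78.2 and 78.3 kb from the 5′ end, just upstream of the transcript start. In TAZ4SA replicates 1 and 2 and in TAZ-CAMTA1 replicate 2 it lay at 79.6, 79.6 and 79.7 kb. The names inside these lists are empty vector, empty vector and TAZ4SA, of which only TAZ4SA has TAZ sequence. Both lists named TAZ-CAMTA1, titled CAMTA1, are among the 11. Exon 2 of the canonical transcript, the first with coding sequence, covers 79405 to 79838 bases of the GRCh38 span. In TAZ4SA replicate 2 the local background at the summit was 11.3 fragments, 6.50 times the median of its peaks, where the other 13 lists had 0.884 to 1.86 times theirs. The summit count there was 128 fragments, against 144 in TAZ4SA replicate 1, whose background was 2.18. The low fold of 10.5 in TAZ4SA replicate 2 thus goes with a high background and not with few fragments. Whether inserted DNA has a part in this background was not tested.

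The RefSeq window of 250 bases before that transcript start (chr3:149658026-149658275 (minus strand) of GRCh38.p14) is shown because every list had its strongest WWTR1 peak beside a start at this distance. Capitals would mark GGAATG or CATTCC, the core bound by TEAD factors, or CACGTG, the palindromic E-box, searched on both strands without overlap between the motifs.
WWTR1 promoter: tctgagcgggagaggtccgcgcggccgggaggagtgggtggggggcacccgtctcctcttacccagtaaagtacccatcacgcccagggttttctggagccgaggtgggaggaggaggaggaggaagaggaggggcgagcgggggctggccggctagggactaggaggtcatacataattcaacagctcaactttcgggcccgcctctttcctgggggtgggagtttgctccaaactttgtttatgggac
Neither motif occurred in it. GGAATG on either strand occurred in 4175 of 35116 RefSeq windows of this length (11.9%) and CACGTG in 2228 (6.34%).

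At the annotated 5′ end of WWTR1 itself (within 2500 bp) only 4 lists had a peak. Its fold enrichment was 4.75 in TAZ4SA replicate 1, 4.36 in TAZ4SA replicate 2, 3.21 in CAMTA1 replicate 1 and 3.38 in YAP5SA replicate 1. The lists titled TAZ4SA are the 2 longest of all. By title, the percentile averaged 30.8 in the 4 carrying lists and 4.38 in the other 10 (exact two-sided permutation p = 0.0659). The difference of 26.4 became 12.7 without TAZ4SA replicate 1, 36.6 without a TAZ-CAMTA1 list (exact permutation p = 0.0385), 8.66 with −log10 q of at least 5 (exact permutation p = 0.286) and 0 with equal numbers of peaks taken from each list. Grouped by the names inside the lists it was 4.51 against 14.9 (exact permutation p = 0.505).

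Downstream of the transcript start the gene body was covered by a domain of peaks that ran on for 75.6 kb. The merged region chr3:149287163-149362801 lay from 91.7 to 167 kb from the 5′ end, was the 10th widest of 138849 and held peaks of all 14 lists. The peaks of TAZ4SA covered 75.0 and 72.8 kb of it, in 3 and 8 peaks. The empty vector lists covered 51.2 and 52.2 kb in 25 peaks each. CAMTA1 lists covered 58.1 and 41.1 kb, YAP5SA lists 46.3 and 43.4 kb, YAP-TFE3 lists 45.6 and 26.4 kb and TAZ-CAMTA1 lists 9.63 and 36.4 kb. In TFE3 they covered 1.98 and 51.2 kb. The lists of 1 title differed by 1.04 kb, in the empty vector, to 49.2 kb, in TFE3. The mean percentile of the region was 90.7 in the carrying lists and 91.7 in the others (exact permutation p = 0.827).

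**Figure D1:**
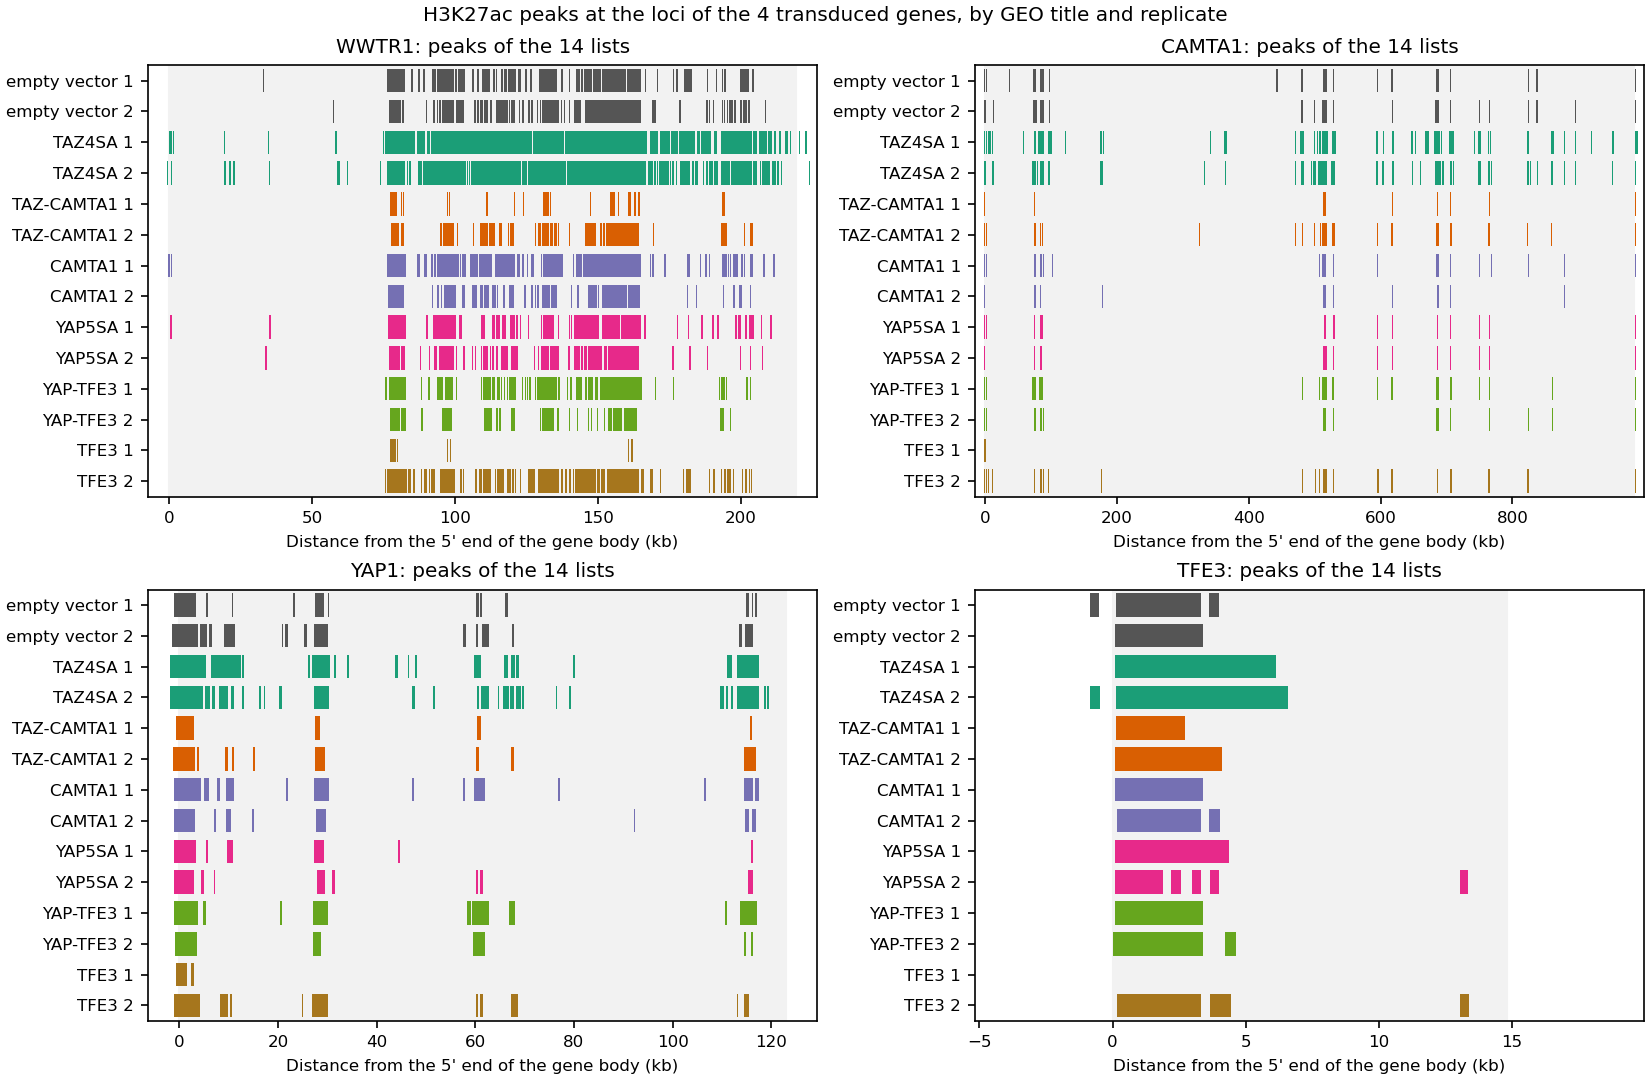
Peaks of each list (rows, by GEO title and replicate) over the 4 gene bodies (grey) widened by 5 kb, with the distance from the 5′ end in kb on the x axis. Narrow peaks are drawn at a minimum width so that they can be seen. WWTR1 has only small scattered peaks before 75.5 kb, mostly in the TAZ4SA lists. CAMTA1 has isolated clusters shared by most lists among many regions of 1 list only (48 of 87). TFE3 has 1 block at its 5′ end in 13 lists.

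At WWTR1, lists with few internal peaks mostly had a small covered share, and the TAZ4SA lists departed from this with the largest covered shares at 25 and 42 peaks. Internal peaks, those in the gene body outside the 5′ window, were 25 and 42 in TAZ4SA and 17 and 26 in TAZ-CAMTA1. They were 40 and 43 in the empty vector lists, 36 and 31 in CAMTA1, 33 and 35 in YAP5SA, 36 and 23 in YAP-TFE3 and 6 and 46 in TFE3. Per 10000 peaks of the list this was 4.97 on average in the 4 carrying lists and 8.98 in the other 10, a difference of -4.01 (exact two-sided permutation p = 0.004995, 1 of 8 such tests). TAZ4SA lists had 2.45 and 4.24 and TAZ-CAMTA1 lists 7.82 and 5.38, where the other 10 ran from 5.80 to 11.6. The test divided the lists freely, although the lists of 1 title share a construct. A test with the construct as the unit was not run. The covered share of the locus was 57.9% and 53.7% in TAZ4SA, 5.92% and 19.3% in TAZ-CAMTA1 and from 1.94% to 35% in the other 10. The covered share was 10.4 percentage points higher in the carrying lists (exact permutation p = 0.275), and with equal numbers of peaks taken from each list the difference in internal peaks fell to -0.437 per 10000 (exact permutation p = 0.870). With the names inside the lists it was -0.26 (exact permutation p = 0.883). With peaks within 1 kb of each other joined, the difference by title was -2.71 (exact permutation p = 0.041). The lower number of internal peaks thus passed the test by title over freely divided lists, also with neighbouring peaks joined. It passed neither with the other naming nor with lists of equal length.

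**Figure D2:**
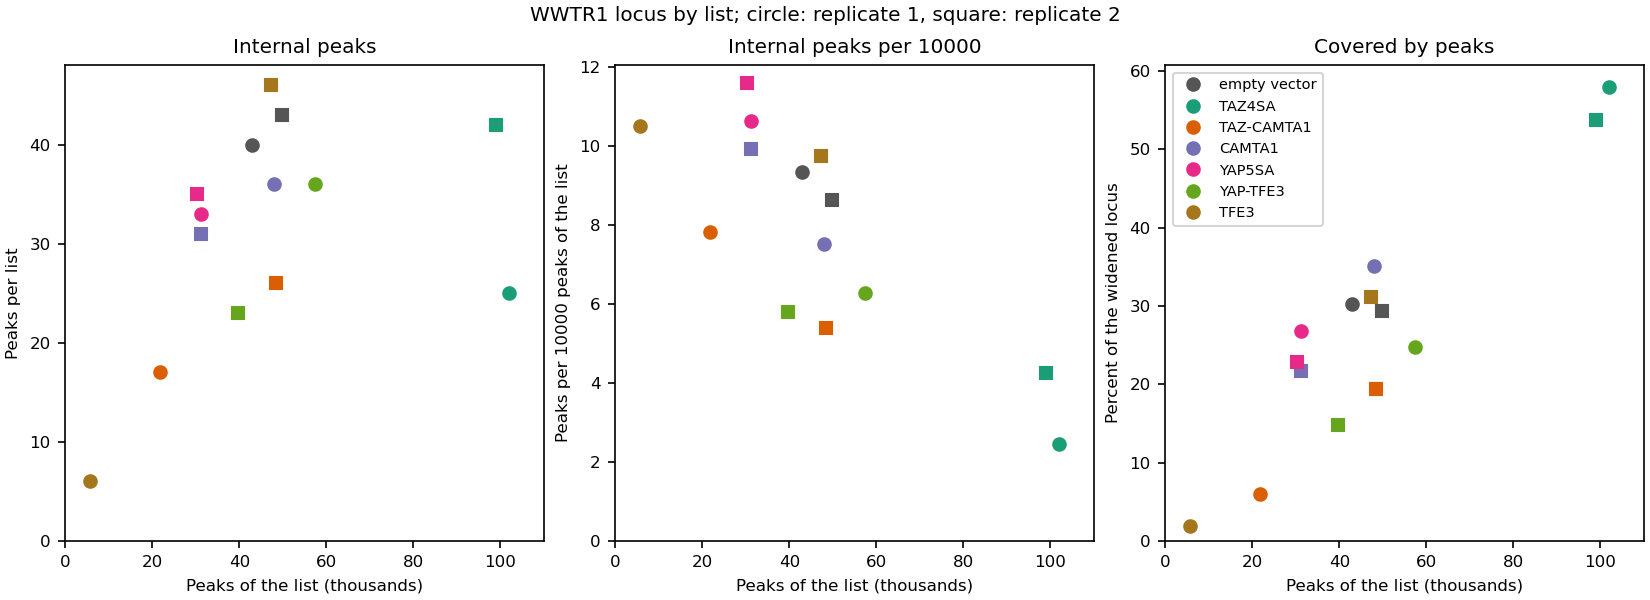
Internal peaks, internal peaks per 10000 and percent of the widened WWTR1 locus covered by peaks (y axes) against the number of peaks of the list (x axis), 1 point per list. Both TAZ4SA lists, at the right, have the fewest peaks per 10000 (2.45 and 4.24) and the largest covered share.

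CAMTA1 lies on the plus strand of chr1:6845384-7829766, and its peaks were the most scattered of the 4 loci. They merged into 87 regions, of which 39 had a peak in at least 2 lists and 1 in all 14. The region in all lists was at the 5′ end, chr1:6843049-6845194. Its fold enrichment was 19.8 and 20.9 in the empty vector lists, 39.6 and 25.2 in TAZ4SA, 6.53 and 18.9 in TAZ-CAMTA1 and 16.8 and 15.4 in CAMTA1. In YAP5SA it was 14.5 and 10.3, in YAP-TFE3 21.6 and 11.6 and in TFE3 6.64 and 15.1. Of the 4 lists titled TAZ-CAMTA1 and CAMTA1, TAZ-CAMTA1 replicate 1 was the lowest of all 14, just below TFE3 replicate 1, and the other 3 lay within the range of the other 10. Their mean percentile was 93.8 against 95.8 (exact two-sided permutation p = 0.387), and with the names inside the lists it was 97.3 against 94.4 (exact permutation p = 0.184).

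The first RefSeq start of CAMTA1 is the one at the annotated 5′ end, and its window (chr1:6785204-6785453 (plus strand) of GRCh38.p14) is shown because the peak of all lists ends just before this start.
CAMTA1 promoter: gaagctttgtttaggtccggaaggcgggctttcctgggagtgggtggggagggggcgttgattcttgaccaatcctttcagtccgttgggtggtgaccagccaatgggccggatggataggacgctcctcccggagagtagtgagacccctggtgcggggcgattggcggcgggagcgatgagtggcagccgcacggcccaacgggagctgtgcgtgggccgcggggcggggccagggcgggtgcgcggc
It held neither motif. Of the 4 other RefSeq starts of CAMTA1, all downstream, 1 held GGAATG, at 184 bases before the start.

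In CAMTA1, 4 internal regions had peaks in 13 lists, all but the shortest, TFE3 replicate 1. The strongest by mean percentile, 80.6, was chr1:7527854-7535386, from 682 to 690.0 kb from the 5′ end. Its fold ran from 5.12 in YAP5SA replicate 1 to 21.0 in YAP-TFE3 replicate 1, and it had a mean percentile of 80.7 in carrying lists and 80.6 in the others. The next, chr1:7355714-7364268, had a mean percentile of 79.5 and folds from 5.94 in YAP5SA replicate 2 to 19.8 in TAZ-CAMTA1 replicate 2. The other 2 lay at 72.4 to 78.4 kb and at 705 to 708 kb, with highest folds of 14.6 and 10.2. In none of these 4 did carrying lists and others differ beyond the spread of the lists (unadjusted exact permutation p from 0.223 to 1). Internal peaks averaged 3.60 per 10000 in carrying lists and 3.96 in the others (exact permutation p = 0.706).

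Near the 3′ end of CAMTA1 some peaks had the outline of exons. These were picked out after their values had been seen, and they are described with no test. The region chr1:7723426-7725250 had peaks in 4 lists and no others, TAZ4SA replicates 1 and 2 and CAMTA1 replicates 1 and 2. Genome-wide, 56 of the 61872 regions with a peak in at least 2 lists (0.0905%) had exactly these 4 lists. The peaks of TAZ4SA were both 1823 bp wide, at chr1:7723426-7725248 in replicate 1 and chr1:7723428-7725250 in replicate 2. Exon 9 of the canonical CAMTA1 transcript in GENCODE is 1847 bp long. It runs from 106353 to 104507 bases before the 3′ end of the GRCh38 gene span, and the peaks run from 106340 to 104518 and from 106338 to 104516 bases before the 3′ end of the hg19 gene body. The CAMTA1 peaks, 1454 and 1070 bp wide, lay inside these bounds, from 106241 to 104788 and from 106170 to 105101 bases.

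Exon 9 is the exon in which the fusion TAZ-CAMTA1 begins, so its edges in the spliced transcript are shown with exon 9 in capitals, from GENCODE, with 30 bases to each side of each junction.
Exons 8 and 9 joined: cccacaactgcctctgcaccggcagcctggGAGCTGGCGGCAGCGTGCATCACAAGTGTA
Exons 9 and 10 joined: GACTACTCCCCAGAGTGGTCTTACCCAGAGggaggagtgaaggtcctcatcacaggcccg

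A second cluster lay at exons 13 to 16 and appeared in the TAZ4SA lists alone. In replicate 1, a peak of 317 bp ran from 32452 to 32136 bases before the 3′ end, and exon 15, of 316 bp, runs from 32451 to 32136. The next peak, of 529 bp, ran from 31750 to 31222 bases, beside exon 16 of 524 bp from 31747 to 31224. Another peak of that list, at 33366 to 32846 bases, shared its upstream edge with exon 13, which begins at 33362 bases, and ran past that exon's end. In replicate 2, a single peak of 1546 bp ran from 32775 to 31230 bases, where the start of exon 14 and the end of exon 16 are 1552 bp apart, from 32775 to 31224. Exons 10, 11, 12 and those after 16 had no such peak.

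All peaks inside the 4 gene bodies were then scanned for such outlines. A peak was counted where both edges lay within 50 bp of the edges of an exon, or of a run of neighbouring exons of at most 3000 bp, at equal distances from the gene's 3′ end. Of 304 CAMTA1 peaks 5 qualified, 3 in TAZ4SA replicate 1 (exons 9, 15 and 16) and 2 in TAZ4SA replicate 2 (exon 9 and exons 14 to 16). These 5 are the peaks described above that prompted the scan, so finding them again is no separate result. Other genes were not scanned, and whether 5 of 304 is unusual in lists of this length was not tested. Of 443 WWTR1 peaks, 130 YAP1 peaks and 22 TFE3 peaks, 0 qualified. The last exons of WWTR1, CAMTA1 and YAP1, of 3755, 3248 and 3723 bp, exceed 3000 bp and could not qualify. Exons were scanned whole, so an outline of coding sequence alone could be missed, such as the 441 coding bp of the last TFE3 exon of 1876 bp. The spans of the 2 builds differ by 130 bases at CAMTA1, by 15 at YAP1 and by 121 at TFE3, so a shift between builds within the gene could hide a match there.

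The exon peaks of the 2 titles differed in level. In TAZ4SA replicate 1 the exon 9 peak had a fold of 11.5, 52 fragments at its summit and rank 11588 of 102009, on a background of 3.61 fragments. In TAZ4SA replicate 2 it had 80 fragments on a background of 15.7, 9.0 times the median of that list, which left a fold of 4.86. The peak over exons 14 to 16 in the same list stood on a background of 10.01 fragments, 5.75 times the median. Only 18 of the 98992 peaks of TAZ4SA replicate 2 had a background over 5 times the median, 14 of them on chromosomes 1 to 22 and X, and these 14 include the 2 CAMTA1 peaks and the WWTR1 peak with its summit at exon 2. None of the other 13 lists had a peak over that limit in any of the 4 loci. In CAMTA1 replicates 1 and 2 the exon 9 peaks were small, with 14 and 12 fragments, folds of 3.48 and 4.84 and backgrounds of 1 and 0.83 times the median.

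Neither naming of the lists places exon 9 peaks in all lists with CAMTA1 sequence. By title, 2 of the 4 lists with the peak are of a construct with CAMTA1 sequence, CAMTA1, and 2 are of TAZ4SA, which has none, and both lists titled TAZ-CAMTA1 lack it. By the names inside the lists, the same 4 lists are TAZ-CAMTA1 and the empty vector, and both lists named CAMTA1 lack it. The region's mean percentile was 21.2 in carrying lists and 17.7 in the others under either naming. Which constructs these lists hold was not tested.

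**Figure D3:**
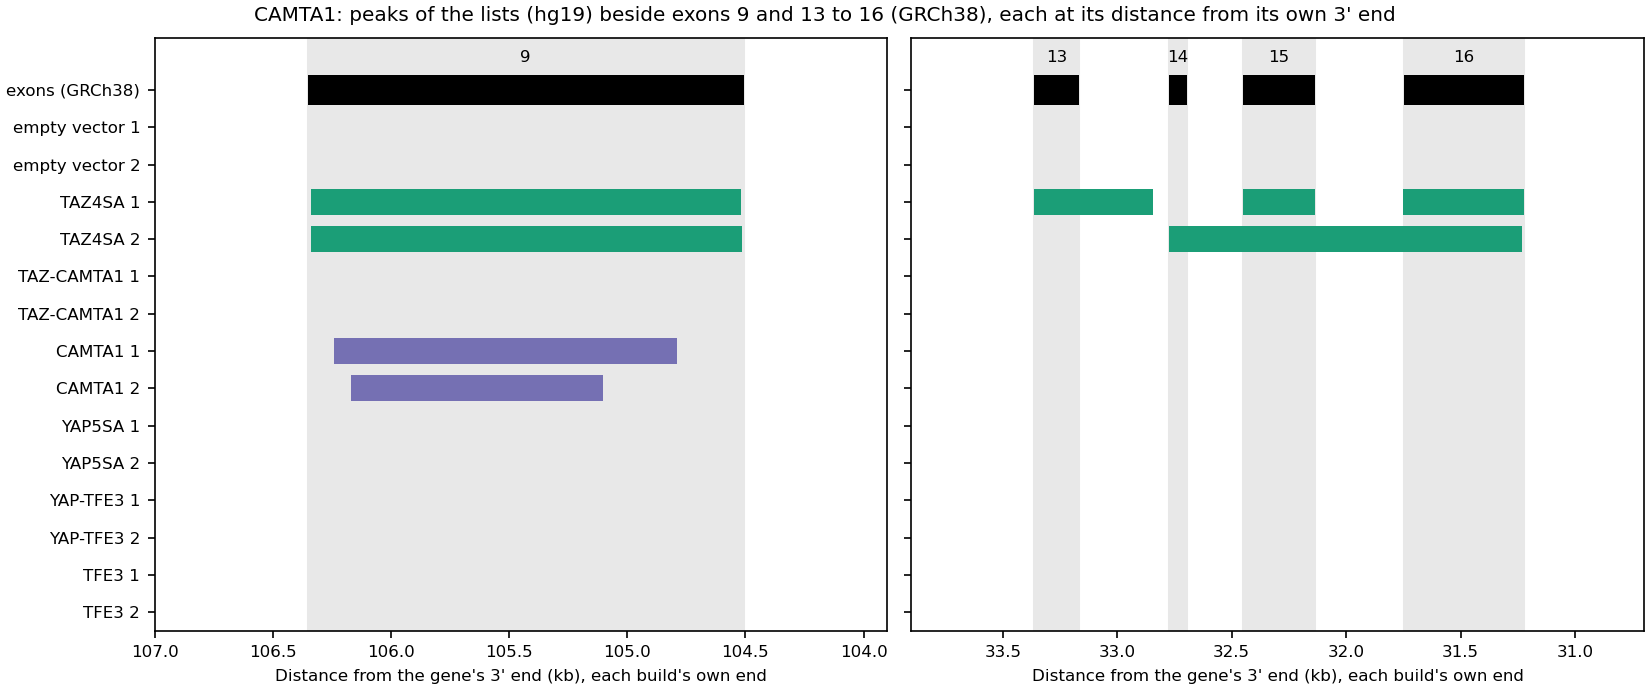
Peaks of the 14 lists (rows) by distance in kb from the 3′ end of the hg19 CAMTA1 body, with exons 9 (left) and 13 to 16 (right) drawn in black and grey at their distance from the 3′ end of the GRCh38 gene span. The edges of the exon 9 peaks of both TAZ4SA lists lie within 50 bp of the edges of exon 9, and both CAMTA1 peaks lie inside it.

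YAP1 lies on the plus strand of chr11:101981192-102104154. At its 5′ end it had the highest single fold of the 4 loci, in TAZ4SA replicate 1, while in some lists the WWTR1 peak had the higher fold. The merged region chr11:101979284-101993673 began 1.91 kb before the 5′ end and ended 12.5 kb after it. It had a peak in all 14 lists, a mean percentile of 97.2 and rank 486 of 138849. The fold was 16.7 and 28.1 in the empty vector lists, 57.9 and 53.3 in TAZ4SA, 11.3 and 23.8 in TAZ-CAMTA1 and 24.6 and 17.6 in CAMTA1. It was 13.6 and 12.8 in YAP5SA, 29.6 and 20.7 in YAP-TFE3 and 6.18 and 18.2 in TFE3. Both TAZ4SA lists lay above the other 12, and the lists with YAP sequence by title, YAP5SA and YAP-TFE3, lay inside the range of the rest. The peak ranked 71 of 98992 in TAZ4SA replicate 2 and 1083 of 5721 in TFE3 replicate 1. The mean percentile was 97.6 in the carrying lists and 97.1 in the others (exact two-sided permutation p = 0.915). By the names inside the lists the means were 94.7 and 98.2 (exact permutation p = 0.218).

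The RefSeq window of YAP1 (chr11:102110197-102110446 (plus strand) of GRCh38.p14) is shown because it lies inside the region with the highest single fold and holds both motifs.
YAP1 promoter: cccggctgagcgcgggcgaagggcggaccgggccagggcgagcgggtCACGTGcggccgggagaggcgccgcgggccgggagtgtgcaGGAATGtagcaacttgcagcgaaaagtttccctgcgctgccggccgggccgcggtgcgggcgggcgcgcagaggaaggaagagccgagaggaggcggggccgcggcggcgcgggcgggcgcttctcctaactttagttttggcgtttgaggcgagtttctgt
CACGTG began 203 bases and GGAATG 162 bases before the start. A match of letters is no evidence of binding, and binding of TEAD factors or TFE3 was not measured in these lists.

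In YAP1, 3 internal regions were in most lists. That at 26.8 to 30.5 kb, chr11:102008023-102011719, had peaks in 13 lists and folds from 3.22 in TAZ-CAMTA1 replicate 1 to 9.17 in TAZ4SA replicate 2. That at 59.4 to 62.8 kb had peaks in 11 lists and its highest fold, 12, in YAP-TFE3 replicate 1. That at 113 to 118 kb, chr11:102094169-102098781, had peaks in 13 lists and folds from 2.26 in YAP5SA replicate 1 to 6.05 in empty vector replicate 2 and in TAZ4SA replicate 1. Their mean percentiles in carrying lists and others were 57.0 and 56.7, 47.5 and 47.7, and 33.8 and 51.9 (unadjusted exact permutation p = 0.986, 0.992 and 0.240). Internal peaks were 1.58 per 10000 in carrying lists and 1.90 in the others by title (exact permutation p = 0.482). By the names inside the lists they were 1.08 and 2.11 (exact permutation p = 0.013, 1 of 8 further tests), and 1 of the 4 carrying lists was then the shortest, TFE3 replicate 1, with 0 internal peaks.

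TFE3 lies on the minus strand of chrX:48886238-48901043, the shortest of the 4 genes, and had nearly all of its signal at the 5′ end. The region chrX:48894433-48901037 reached 6.61 kb into the gene and had a peak in 13 lists. Its fold was 8.54 and 20.1 in the empty vector lists, 32.1 and 22.4 in TAZ4SA, 7.53 and 14 in TAZ-CAMTA1 and 13.2 and 9.31 in CAMTA1. It was 13.1 and 10.5 in YAP5SA and 14 and 13 in YAP-TFE3. TFE3 replicate 1 had no peak anywhere in the locus and TFE3 replicate 2 had a fold of 14.3. The lists with TFE3 sequence by title had a mean percentile of 69.3 and the others of 90.0 (exact two-sided permutation p = 0.212). The gap rests on TFE3 replicate 1, and without that list the carrying lists were 2.46 percentile points higher (exact permutation p = 0.514). In the 13 lists with a peak, log2 fold differed by 0.01 (exact permutation p = 0.976). By the names inside the lists, where TFE3 replicate 1 is again a carrying list, the mean percentiles were 67.2 and 90.8 (exact permutation p = 0.0979).

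The TFE3 window (chrX:49043358-49043607 (minus strand) of GRCh38.p14) is shown because it lies beside the only strong region of that locus.
TFE3 promoter: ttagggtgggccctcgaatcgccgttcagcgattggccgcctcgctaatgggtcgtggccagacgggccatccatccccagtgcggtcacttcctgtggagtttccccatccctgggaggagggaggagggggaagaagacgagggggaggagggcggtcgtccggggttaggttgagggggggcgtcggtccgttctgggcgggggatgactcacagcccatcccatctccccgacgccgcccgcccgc
It held neither motif.

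**Figure D4:**
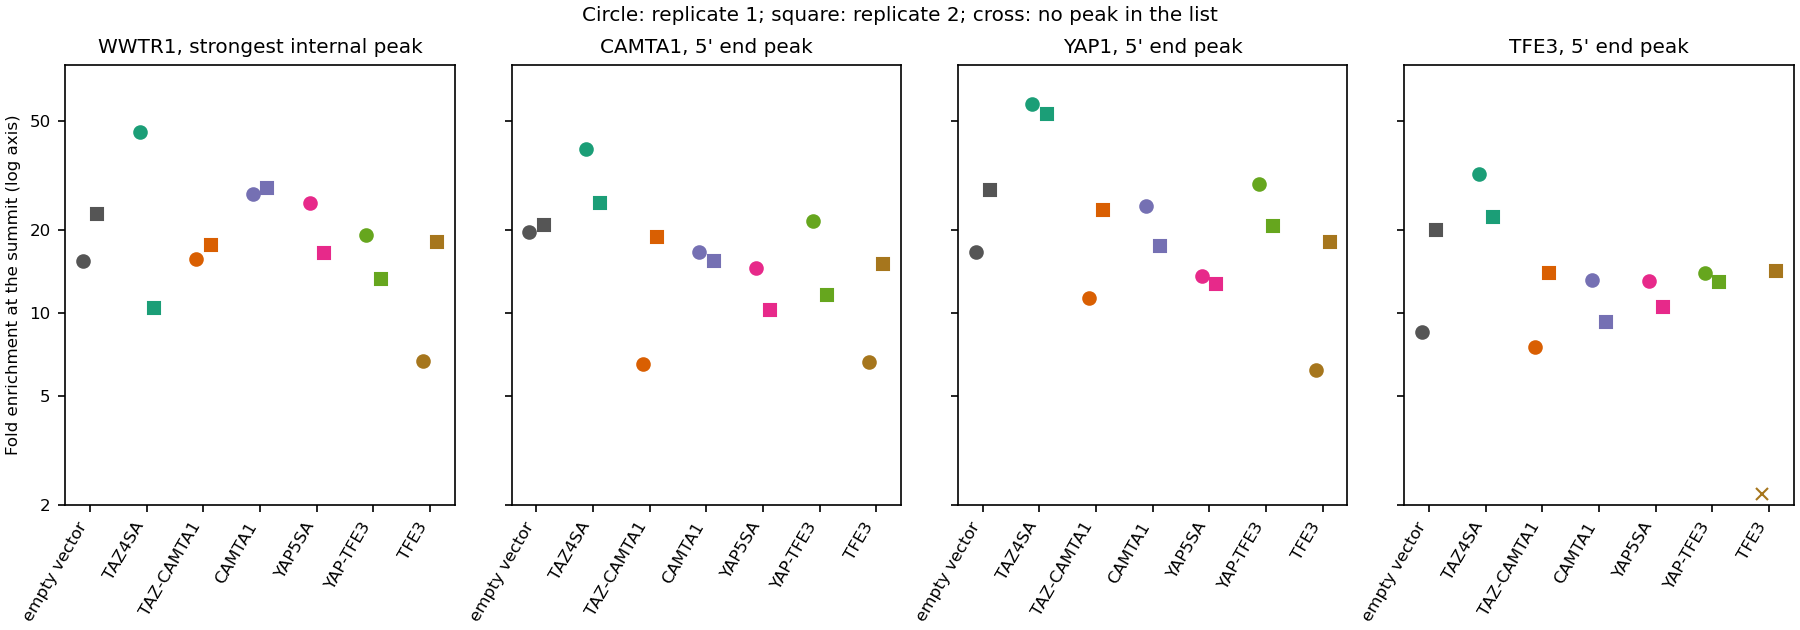
Fold enrichment at the summit (log axis) by GEO title for the strongest internal WWTR1 peak and the strongest 5′ end peaks of CAMTA1, YAP1 and TFE3, with 1 point per list and a cross where a list has no peak. TAZ4SA lists are highest at CAMTA1, YAP1 and TFE3, and TAZ4SA replicate 2 is the second lowest at WWTR1. Folds are not scaled between lists. In percentile, TAZ4SA had 98.4 and 97.8 at CAMTA1, beside 98.3 in YAP-TFE3 replicate 1. At TFE3 it had 97.0 and 96.9, beside 96.5 in empty vector replicate 2, and at YAP1 99.87 and 99.93, beside 99.55 in that list.

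A small peak at the far end of TFE3 was found in 2 lists alone. It covered chrX:48887685-48887999 in YAP5SA replicate 2 and chrX:48887669-48887999 in TFE3 replicate 2, with folds of 3.99 and 5.23 and 15 and 13 fragments. Its edges stood 1447 and 1431 bases from the 3′ end on the near side and 1761 bases on the far side. In GENCODE the coding part of the last TFE3 exon covers 1435 to 1875 bases from the 3′ end of the GRCh38 span, and the rest of that exon is not translated. By title 1 of these 2 lists has TFE3 sequence, and by the names inside the lists, TFE3 and YAP-TFE3, both do. The other list of each title had no peak there. Genome-wide, 16 regions (0.0259%) had a peak in these 2 lists alone. Over the last coding part of YAP1 and of WWTR1 there was 1 peak each, in TAZ4SA replicate 2 (367 bp, rank 61896 of 98992) and in TAZ4SA replicate 1 (812 bp, rank 71666 of 102009).

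No region of the 4 loci passed the adjusted test of carrying lists against the others, in a design that makes such a call unlikely. The test compared the mean percentile of 4 carrying lists with that of 10 others in each of 61872 regions with a peak in at least 2 lists, of which 14 lay at WWTR1, 39 at CAMTA1, 14 at YAP1 and 3 at TFE3. By title, 0 regions passed an adjusted p of 0.05 in any of the 4 comparisons (0% of those tested). With every way to divide 14 lists into 4 and 10 the smallest p is 0.000999, and 1237 regions would have had to reach it for 1 to pass. At an unadjusted p under 0.05, 4846 regions (7.83%) passed for WWTR1, 259 (0.419%) for CAMTA1, 165 (0.267%) for YAP1 and 1023 (1.65%) for TFE3, and 0 of them lay in the locus itself. That count was not 0 under every setting. Without TAZ-CAMTA1 replicate 1 or 2 it was 8 of 14 at WWTR1 both times (smallest exact permutation p 0.0245 and 0.0385), where 46% and 37.5% of all regions tested had such a p. With equal numbers of peaks it was 1 of 3 at WWTR1 (9.57% of all regions), and in windows around the summits 4 of 71 (5.61%). At CAMTA1 it was 1 of 39 without CAMTA1 replicate 1 (1.25%), 1 of 39 without TFE3 replicate 1 (3.73%) and 2 of 38 without both lists titled TFE3 (3.14%). The smallest p in the loci was 0.0659 at WWTR1, 0.129 at CAMTA1, 0.240 at YAP1 and 0.212 at TFE3. A peak in all 4 carrying lists and in no other was found in 14 regions (0.0226%) for WWTR1 and in 0 for the other 3 genes, and in 0 regions of the loci.

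Grouping by the names inside the lists gave 0 regions with an adjusted p under 0.05 as well. At an unadjusted p under 0.05 there were then 259 regions (0.419%) for WWTR1, 113 (0.183%) for CAMTA1, 1023 (1.65%) for YAP1 and 5146 (8.32%) for TFE3, with 0 in the loci and a smallest p there of 0.195, 0.0659, 0.218 and 0.0659. The lists of WWTR1 by name are those of CAMTA1 by title, and the lists of YAP1 by name are those of TFE3 by title, so these comparisons are not separate evidence.

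Regions with a peak in both lists of 1 title and in none of the other 12 are the same under either naming. For TAZ4SA there were 11 among the 70 tested regions of the 4 loci, 2 at WWTR1, 8 at CAMTA1, 1 at YAP1 and 0 at TFE3, where 21.4% of all regions tested were of this kind. For the empty vector there was 1, chr1:7680938-7681859 in CAMTA1, with folds of 3.86 and 4.40, where the share over all regions was 0.0792%. There were 0 in the loci for TAZ-CAMTA1 (0.0356% of all regions), CAMTA1 (0.0259%), YAP5SA (0.00808%), YAP-TFE3 (0.876%) and TFE3 (0%). The share at the loci for TAZ4SA, 15.7%, was below that over all regions, and the outlines of exons 14 to 16 of CAMTA1 were 1 of these 11 regions.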

How the data were processed

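ChIP-seq peak lists of SW872 cells, H3K27ac by title and antibody label, were read as deposited. The authors' methods state that they trimmed adapters, used BWA-MEM with the GRCh37/hg19 genome, left out reads that map to several places and regions on a greylist, and ran MACS2 for narrow peaks. A deposited peak has the fold of its summit over the background, the caller's −log10 p and −log10 q and the place of the summit, and the last was used as an offset from the start. The methods state pooled replicates and a q limit of 0.1, whereas each list analysed comes from 1 library and no −log10 q is under 1.30. Read totals are not in the lists, so depth is unknown. Summit fragments and background were solved from fold and p, whole within 0.001 of −log10 p for at least 99.797% of the peaks of each list.

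Lists were grouped by GEO title. The members and lists were chosen with earlier results of these data known, and p-values measure the spread between these lists. Lists of 1 title were divided freely although they share a construct, so no p-value has the construct as its unit. For each gene the 4 lists whose construct holds its sequence were compared with the 10 others by exact two-sided permutation tests over all divisions of the lists, with Benjamini-Hochberg adjustment over 61872 merged regions. The regions described were, by rule, that at the 5′ end, the most shared and the strongest internal ones, any called or found in the 4 carrying lists alone, and those found in both lists of 1 title alone. Others were picked after their values were seen.

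Exons and related genes were planned for an annotation of the lists' build only. That of GRCh38 was used here, after the values were seen, for lengths and distances within its own build. Promoter windows are RefSeq's, GRCh38.p14, with entries for 4 of 4 genes. The code was tested on simulated data under Python 3.11.15, and the packages were matplotlib 3.10.9, pandas 2.3.3, scipy 1.17.1 and numpy 2.4.6.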

Additional observations from a re-analysis of the deposited data

How the results depend on the processing

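Values below are differences, carrying lists minus others, in internal peaks per 10000 or in 5′ end percentile. Of 208 differences under other settings 171 kept their direction and their side of the threshold of exact permutation p, 32 turned or came to 0, and 2 lost and 3 gained significance. The number of regions called was 0 throughout, which the design all but fixes and which says nothing of stability. With the construct in the peak names, internal peaks were -0.260 (WWTR1), 0.494 (CAMTA1), -1.03 (YAP1, exact permutation p = 0.013) and 0.273 (TFE3). Percentiles with those names were -10.4 (WWTR1), 2.87 (CAMTA1), -3.55 (YAP1) and -23.6 (TFE3, exact permutation p = 0.0979). With equal numbers of peaks per list, internal peaks were -0.437 (WWTR1), 0.350 (CAMTA1), 0.437 (YAP1) and 0 (TFE3), and percentiles 0 (WWTR1), -7.70 (CAMTA1), -5.20 (YAP1) and -7.13 (TFE3). Internal peaks of TFE3, a difference of 0.0142 in the main setting, were -0.0582 with −log10 q of at least 5 and -0.0189 with a 5′ window of 1 kb. With −log10 q of at least 5 the percentile differences were 8.66 (WWTR1), -3.30 (CAMTA1) and 1.54 (YAP1), and internal peaks were -0.549 (CAMTA1) and -0.0670 (YAP1). With peaks within 1 kb joined, internal peaks were -0.181 (CAMTA1), -0.0762 (YAP1) and 0.0320 (TFE3). On log2 fold, the 5′ end differed by -0.234 at YAP1 and 0.0103 at TFE3. Chosen after seeing the data, the covered share was 10.4 percentage points higher at WWTR1 and -5.07 at TFE3, and without both lists titled TFE3 the values were -0.0284 (TFE3 internal), -1.22 (YAP1 percentile) and 2.03 (TFE3 percentile).

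With 1 list left out at a time, internal peaks ranged from -4.96 to -3.17 at WWTR1, with exact permutation p up to 0.0245, from -0.805 to -0.0854 at CAMTA1, from -0.568 to -0.133 at YAP1 and from -0.0705 to 0.107 at TFE3. Percentiles ranged from 12.7 to 36.6 at WWTR1, highest and with exact permutation p = 0.0385 without a TAZ-CAMTA1 list. They ranged from -3.11 to 0.448 at CAMTA1, positive without TAZ-CAMTA1 replicate 1, from -1.22 to 1.39 at YAP1, lowest without TFE3 replicate 1, and from -28.6 to 2.46 at TFE3, positive without TFE3 replicate 1. The cause of these changes was not tested.

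Lists with the same replicate number did not deviate together, with r from -0.311 to 0.409 over 21 pairs of titles, over 0.1 in 3 and under -0.1 in 3, so those numbers were not taken as pairs. The numbers in the peak names differ from the titles' in 2 titles, and with them r ran from -0.138 to 0.409, over 0.1 in 5 of 21 pairs. With the replicate block the WWTR1 difference in internal peaks was -4.01 (exact permutation p = 0.00907). With the block by the numbers in the peak names, chosen after seeing the data, it was -4.06 (exact permutation p = 0.00952), and the TFE3 difference turned to -0.0105. Neither block changed a call.

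The depth of the reads is unknown, and whether a region without a peak in a short list lacked the mark or went undetected was not tested. Only 2 lists stand behind each title, the 4 comparisons use the same 14 lists, and a call by adjusted p requires 1237 regions at the smallest p.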
